A study of Danio rerio with 12 samples.

Results

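The genes described here are 8 genes of cortisol signalling in the zebrafish brain: the glucocorticoid receptor nr3c1, the mineralocorticoid receptor nr3c2, the cortisol-inactivating enzyme hsd11b2, and the hormone-induced genes fkbp5, tsc22d3, klf9, sgk1 and zbtb16a. They were chosen by name from known roles, with results of these same libraries already in view, so their differences between the injections are given as a description and are not independent evidence. All 8 were found, each as a single gene, among 31953 genes in the count table, and all 8 were among the 20237 genes that passed the filter on low counts. The measurements are mRNA counts from sorted cells of brains of Tg(her4.1:EGFP) zebrafish aged 6 months, in which the her4.1 promoter, active in radial glia, drives EGFP. The fish were injected in the brain with the AB42 peptide (amyloid-β42, written TR-Aβ42 in the labels' protocol) or with a control that the labels name CPP, and the brains were taken 48 hours later. The groups, each of 3 libraries, were GFP-positive cells after AB42, GFP-positive cells after CPP, GFP-negative cells after AB42, and GFP-negative cells after CPP. All 4 groups carry the reporter transgene and all came from injected and dissociated brains. No uninjected group was used here, and the labels do not say whether the replicates were separate fish or technical. The p-values measure only the spread between libraries, which may be technical.

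Cortisol is the main glucocorticoid of fish and enters cells freely. It binds receptors that Hsp90 and its co-chaperones hold ready in the cytoplasm, and the bound receptors move to the nucleus and switch target genes on or off. In mammals several targets damp the signal in turn: the protein made from FKBP5 lowers the receptor's affinity for hormone, and that made from TSC22D3 (GILZ) restrains inflammatory transcription. In the brain both corticoid receptors are expressed in neurons and glia, and enzymes that convert cortisol set how much of it reaches them.

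Levels are given as CPM (counts scaled to a common library size) after TMM scaling, a correction for differences in library composition. Total counts ran from 9262838 to 15584769 per library, and 3 counts corresponded to 0.164 to 0.326 CPM, far below the level of the members. TMM factors were 0.884 to 0.924 in GFP-positive AB42 libraries, 0.827 to 0.874 in GFP-positive CPP libraries, 1.07 to 1.09 in GFP-negative AB42 libraries and 1.18 to 1.21 in GFP-negative CPP libraries. The reporter's own gene her4.1 averaged 1892 CPM in GFP-positive and 28.9 CPM in GFP-negative cells after AB42, and 2277 CPM in GFP-positive and 32.3 CPM in GFP-negative cells after CPP.

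The glucocorticoid receptor gene nr3c1 (ENSDARG00000025032, GRCz10 chromosome 14, 23449465 to 23504144, minus strand) had 70.27, 64.35 and 59.1 CPM in GFP-positive AB42 libraries, against 67.7, 70.4 and 67.6 CPM in GFP-positive CPP libraries. In GFP-negative cells it had 81.6, 81.9 and 76.1 CPM after AB42, against 87.9, 80.8 and 80.5 CPM after CPP. The libraries of both injections overlapped in each fraction. The log2 fold change of AB42 over CPP was -0.08 in GFP-positive cells (95% interval -0.233 to 0.0645, edgeR adjusted p = 0.502) and -0.05 in GFP-negative cells (interval -0.196 to 0.0872, adjusted p = 0.59). The difference between the injections did not pass the test in either fraction. Scaling by library totals alone gave 0.01 in GFP-positive cells and -0.19 in GFP-negative cells (adjusted p = 0.044, with 0.044 to 0.764 over its alternatives).

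The mineralocorticoid receptor gene nr3c2 (ENSDARG00000102082, chromosome 1, 36203197 to 36356009, minus strand), which also binds cortisol, was lower after AB42 in GFP-negative cells. It had 25.4, 26.1 and 27 CPM in GFP-negative AB42 libraries, against 33.8, 42.1 and 39.4 CPM in GFP-negative CPP libraries. These groups did not overlap, and the gene fell by 0.56 on the log2 scale, 1.47-fold (SE 0.109, adjusted p = 7.15e-05). In GFP-positive cells it had 16, 17.2 and 11.9 CPM after AB42 and 17.1, 16.2 and 15.9 CPM after CPP, with overlapping libraries and a log2 fold change of -0.11 (interval -0.366 to 0.137, adjusted p = 0.603). The difference between the AB42 effects of the fractions was 0.45 on the log2 scale and did not pass the test (adjusted p = 0.0541). It passed with RLE scaling (0.0351), library totals (0.00449), DESeq2 (0.0333) and the replicate block (0.0379). It also passed without GFP-positive AB42 replicate 3 (0.00802), GFP-negative AB42 replicate 3 (0.0314) or GFP-negative CPP replicate 1 (0.011), and its adjusted p ran from 0.00449 to 0.205 over all alternatives.

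The enzyme gene hsd11b2 (ENSDARG00000001975, chromosome 7, 34840575 to 34854897, minus strand), whose product converts cortisol to inactive cortisone, was lower after AB42 in both fractions. It had 3.92, 3.87 and 3.04 CPM in GFP-positive AB42 libraries, against 7.27, 8.23 and 9.78 CPM in GFP-positive CPP libraries. In GFP-negative cells it had 6.74, 6.94 and 5.52 CPM after AB42, against 17.9, 18.5 and 19 CPM after CPP. Every AB42 library lay below every CPP library of its fraction. The gene fell by 1.199 on the log2 scale in GFP-positive cells, 2.3-fold (SE 0.185, adjusted p = 5.63e-06), and by 1.53 in GFP-negative cells, 2.88-fold (SE 0.15, adjusted p = 1.32e-10). It was the least abundant member, and the GFP-positive AB42 values rest on 47, 49 and 28 counts. In bulk samples such as these, fewer cells of a type and less RNA per cell cannot be told apart.

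**Figure D1:**
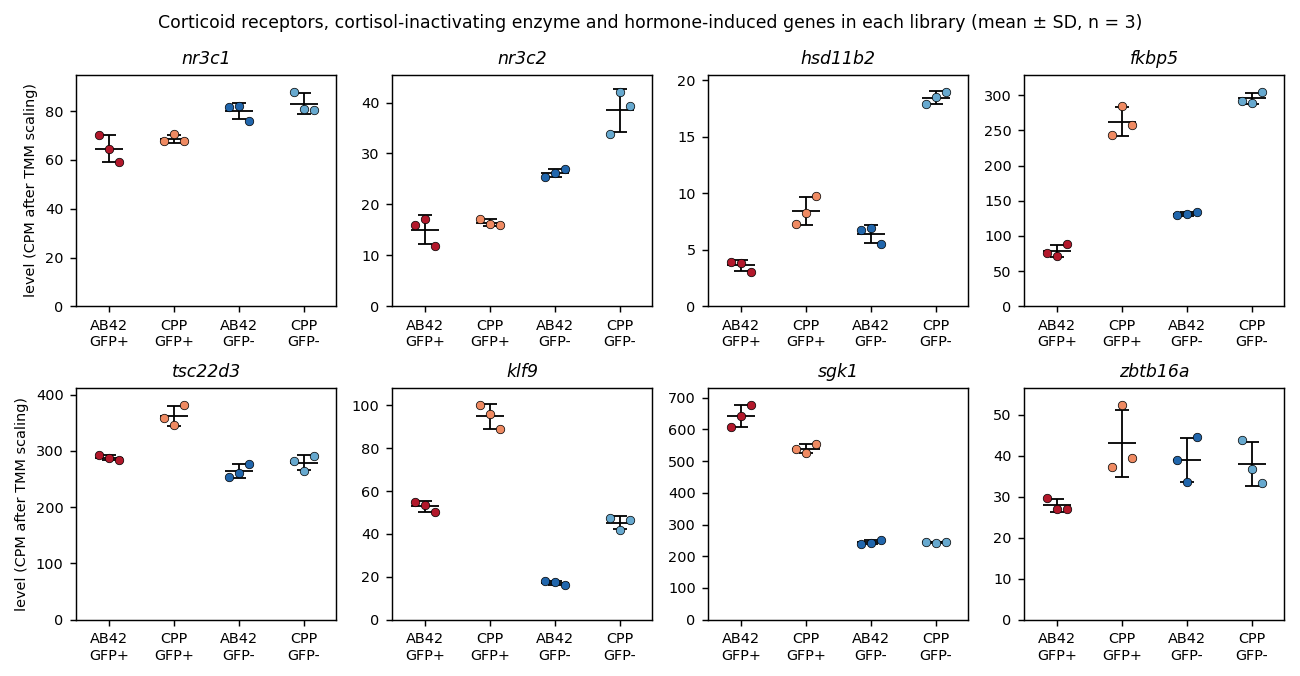
Level of each member in CPM after TMM scaling (vertical axes, each from 0) in the 12 libraries; points are libraries, and bars show the mean ± SD of 3 libraries for GFP-positive (GFP+) and GFP-negative (GFP-) cells after AB42 or CPP. The AB42 points of fkbp5, klf9 and hsd11b2 lie below the CPP points of the same fraction, whereas the points of nr3c1 overlap.

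The co-chaperone gene fkbp5 (ENSDARG00000028396, chromosome 6, 41098522 to 41118517, plus strand) is among the most used readouts of glucocorticoid receptor activity in mammals. It had 76.3, 71.1 and 88.7 CPM in GFP-positive AB42 libraries, against 243.9, 284.4 and 258.1 CPM in GFP-positive CPP libraries. In GFP-negative cells it had 129.6, 130.5 and 134.2 CPM after AB42, against 292.1, 288.9 and 304.9 CPM after CPP. The highest AB42 library of each fraction was well below the lowest CPP library. The gene fell by 1.74 on the log2 scale in GFP-positive cells, 3.34-fold (SE 0.0706, adjusted p = 5.75e-20), and by 1.17 in GFP-negative cells, 2.25-fold (SE 0.0671, adjusted p = 8.77e-17). Its p ranked 3 of 20237 in GFP-positive cells. Of the 13172 tested genes that averaged at least 5 CPM, 0.66% had as low or a lower fold change there and 0.547% in GFP-negative cells. In GFP-positive cells this share was 1.94% for hsd11b2, 4.58% for klf9, 7.55% for zbtb16a and 17.7% for tsc22d3. It was 39.3% for nr3c2, 43.7% for nr3c1 and 86.9% for sgk1. The members were chosen with results of these libraries in view, so nothing is read from these ranks.

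The gene klf9 (ENSDARG00000068194, chromosome 5, 25475077 to 25478012, plus strand) encodes a Krüppel-like transcription factor that glucocorticoids and thyroid hormone raise in vertebrate brain. It had 55, 53.5 and 50.1 CPM in GFP-positive AB42 libraries, against 100.1, 95.8 and 88.7 CPM in GFP-positive CPP libraries. In GFP-negative cells it had 18.1, 17.5 and 16.3 CPM after AB42, against 47.4, 41.6 and 46.6 CPM after CPP. No AB42 library reached a CPP library of its fraction. The gene fell by 0.84 on the log2 scale in GFP-positive cells, 1.79-fold (SE 0.0801, adjusted p = 2.64e-10), and by 1.39 in GFP-negative cells, 2.61-fold (SE 0.0893, adjusted p = 2.29e-15). In GFP-negative cells 0.273% of the genes averaging at least 5 CPM had as low or a lower fold change, and the share for hsd11b2 there was 0.152%. It was 7.74% for nr3c2, 43.1% for tsc22d3, 45.6% for nr3c1, 51.2% for sgk1 and 55.2% for zbtb16a. Nothing is read from these shares either.

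The gene tsc22d3 (ENSDARG00000075666, chromosome 14, 27700651 to 27703880, minus strand) had 292.6, 288.1 and 283.7 CPM in GFP-positive AB42 libraries, against 358, 345.7 and 381.6 CPM in GFP-positive CPP libraries. These libraries did not overlap, and the gene fell by 0.33 on the log2 scale, 1.25-fold (SE 0.0566, adjusted p = 3.68e-05). Its level in GFP-negative cells was 253.6, 261.5 and 277 CPM after AB42 and 281.4, 264.9 and 291.5 CPM after CPP. There the libraries overlapped and the log2 fold change was -0.08 (adjusted p = 0.27), or -0.22 with library totals (adjusted p = 0.000585, with 0.000585 to 0.588 over its alternatives). The fall of tsc22d3 was thus small beside that of fkbp5 in the same cells.

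The gene zbtb16a (ENSDARG00000007184, listed as ZBTB16 in the name table, chromosome 21, 23124769 to 23271216, minus strand) encodes a zinc finger repressor that glucocorticoids raise in mammalian cells. It had 29.7, 27 and 27.1 CPM in GFP-positive AB42 libraries, against 37.2, 52.4 and 39.6 CPM in GFP-positive CPP libraries. The libraries did not overlap, although the CPP libraries were spread, and the gene fell by 0.62 on the log2 scale, 1.54-fold (SE 0.119, adjusted p = 0.000152). Its level in GFP-negative cells was 39.1, 33.7 and 44.5 CPM after AB42 and 44, 36.8 and 33.5 CPM after CPP. These overlapped, and the log2 fold change was 0.05 (adjusted p = 0.786), or -0.09 with library totals.

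The kinase gene sgk1 (ENSDARG00000025522, chromosome 23, 31713708 to 31766778, minus strand), which regulates ion channels and transporters and is raised by corticoids in mammals, was higher after AB42 in GFP-positive cells. It had 606.5, 641 and 676.7 CPM in GFP-positive AB42 libraries, against 538.3, 525.5 and 553.4 CPM in GFP-positive CPP libraries. The libraries did not overlap, and sgk1 rose 1.19-fold, 0.25 on the log2 scale (SE 0.0521, adjusted p = 0.000473). Its level in GFP-negative cells was 239.4, 241.4 and 251.4 CPM after AB42 and 243.4, 241.8 and 245.8 CPM after CPP. There the log2 fold change was 0.002 with an interval of -0.102 to 0.106 (adjusted p = 0.982), and it was -0.02 with RLE scaling and -0.13 with library totals (adjusted p = 0.0141, with 0.0141 to 0.992 over its alternatives). In GFP-positive cells sgk1 thus rose where fkbp5, klf9, tsc22d3 and zbtb16a fell.

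Counted together, 1 of the 8 members was called higher (sgk1) and 5 lower after AB42 in GFP-positive cells, where 6.21% of all genes tested were called higher and 12.5% lower. In GFP-negative cells 0 members were called higher and 4 lower (nr3c2, hsd11b2, fkbp5 and klf9), where 20.9% of all genes were called higher and 17.3% lower. By library totals, 0 members were called higher and 7 lower in GFP-negative cells, where 15.8% of all genes were called higher and 27% lower under that scaling. The members' median log2 fold change was -0.476 in GFP-positive and -0.32 in GFP-negative cells, beside -0.0567 and -0.00915 for all genes tested in the same fractions. Because the members were selected on results of these libraries, nothing is read from their counts against those shares.

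**Figure D2:**
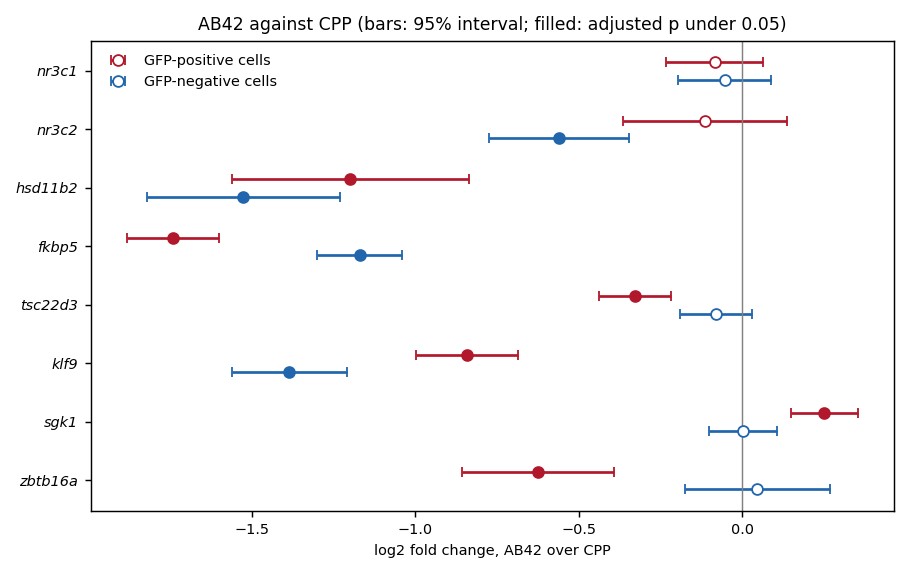
Log2 fold change of AB42 over CPP (horizontal axis) for each member in GFP-positive and GFP-negative cells, with 95% intervals from the fit of all 12 libraries; filled points passed the threshold on adjusted p. The intervals of fkbp5, klf9 and hsd11b2 lie below 0 in both fractions, those of nr3c1 include 0, and sgk1 is above 0 in GFP-positive cells and at 0.002 in GFP-negative cells, where its sign turns with RLE scaling or library totals.

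The AB42 effect itself differed between the fractions for 5 members. The fall of fkbp5 was larger in GFP-positive than in GFP-negative cells, by 0.57 on the log2 scale (difference -0.57, adjusted p = 1.84e-05), and the fall of klf9 was smaller there (difference 0.54, adjusted p = 0.000766). For zbtb16a the difference was -0.67 (adjusted p = 0.00226), or -0.44 with library totals (adjusted p = 0.0628, with 1.45e-05 to 0.0628 over its alternatives). For sgk1 it was 0.25 (adjusted p = 0.0128), and for tsc22d3 -0.25 (adjusted p = 0.0223), which did not pass with RLE scaling (0.0597), DESeq2 (0.0547) or library totals (0.898). The tsc22d3 difference also lost its call without GFP-positive AB42 replicate 2 (0.0503), GFP-positive CPP replicate 3 (0.073), GFP-negative AB42 replicate 3 (0.278), GFP-negative CPP replicate 1 (0.145) or GFP-negative CPP replicate 2 (0.251). For hsd11b2 it was 0.33 and did not pass (adjusted p = 0.372). So 2 members were called higher and 3 lower in this difference, where 5.46% of all genes were called higher and 16.5% lower; their medians were 0.109 for the members and -0.0791 for all genes. The direction of calls over all genes depended on the scaling here, with 1105 higher and 3334 lower by TMM against 3248 higher and 2109 lower by library totals.

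Other values moved with these differences. For the counts that follow, 6.21% of all genes tested were called higher and 12.5% lower in GFP-positive cells, and 20.9% higher and 17.3% lower in GFP-negative cells. In GFP-positive cells 0 of 23 neuron marker genes were called higher and 18 lower after AB42, with a median log2 fold change of -0.944 and a summed level of 590.1 to 598.6 CPM after AB42 against 959.1 to 970.9 CPM after CPP. In GFP-negative cells 0 were called higher and 20 lower, with a median of -0.679 and sums of 4308 to 4540 CPM after AB42 against 6848 to 7043 CPM after CPP. None of the 23 was at 0 throughout a group. After CPP, fkbp5 stood at 262.1 ± 20.6 CPM in GFP-positive and 295.3 ± 8.46 CPM in GFP-negative cells (SD, n = 3 each). The neuron gene SNAP25 (ENSDARG00000020609) stood at 210 ± 9.23 CPM in GFP-positive and 2217 ± 66.3 CPM in GFP-negative cells. With each fraction centred on its own mean, this SNAP25 gene had the pattern most like that of fkbp5 among the genes ranked (Pearson's r 0.995). That r is the highest of 12755 candidates over 12 libraries, and both genes carry the difference between the injections. SNAP25 fell by 1.19 on the log2 scale in GFP-positive and 0.82 in GFP-negative cells, beside 1.74 and 1.17 for fkbp5. The neuron markers were spread around this gene. In GFP-positive cells they ran from -2.39 (SLC17A7, ENSDARG00000016480) to 0.728 (GAD1, ENSDARG00000093411). In GFP-negative cells they ran from -1.15 (RBFOX3, ENSDARG00000010083) to 0.668 (SLC17A7, ENSDARG00000090106). Of 22 microglia and macrophage markers tested, 22 were called higher after AB42 in GFP-negative cells, with sums of 9393 to 9946 CPM after AB42 against 3213 to 3557 CPM after CPP. In GFP-positive cells 2 were called higher and 5 lower, and sums were 2541 to 2724 CPM after AB42 against 2847 to 3133 CPM after CPP. Of 12 oligodendrocyte lineage markers, 7 were called lower and 0 higher in GFP-positive cells, and their sums were 4399 to 4802 CPM after AB42 against 5994 to 6388 CPM after CPP. In GFP-negative cells 8 were called higher and 0 lower, with sums of 18340 to 18990 CPM after AB42 against 14400 to 15680 CPM after CPP. The part of these markers in the members' differences was not tested.

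Smaller marker lists were counted as well. Of all genes tested, 6.21% were called higher and 12.5% lower after AB42 in GFP-positive cells. In GFP-negative cells 20.9% were called higher and 17.3% lower. Several of the counts that follow were near or below those shares, among them those of radial glia and ependymal markers in GFP-negative cells. Of 17 radial glia markers, 2 were called higher and 8 lower after AB42 in GFP-positive cells, and 4 higher and 2 lower in GFP-negative cells. For 21 vessel markers the counts were 3 higher and 1 lower in GFP-positive, and 12 higher and 0 lower in GFP-negative cells. For 20 markers of meninges and epithelium they were 5 higher and 6 lower in GFP-positive, and 8 higher and 3 lower in GFP-negative cells. Among these, the epithelial genes krt5, cldna and cldnb, picked after their values were seen, had log2 fold changes of -3.05, -3.06 and -3.07 in GFP-positive cells (adjusted p = 2.15e-21, 4.05e-14 and 1.05e-17). The keratin genes krt4, krt8 and krt18a.1 of the same list were called higher there, at 0.543, 0.606 and 0.551 (adjusted p = 0.0132, 1.62e-10 and 1.24e-07). Of 14 lymphocyte and neutrophil markers 1 was called higher and 6 lower in GFP-positive cells, and 4 higher and 0 lower in GFP-negative cells. Of 7 erythrocyte markers 0 were called higher and 1 lower in GFP-positive cells, and 3 higher and 2 lower in GFP-negative cells. For 10 ependymal markers 1 was called higher and 1 lower in GFP-positive cells, and 0 in either direction in GFP-negative cells. Their part in the members' differences was not tested either.

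Clock genes also differed between the injections, in both directions. The labels give no hour of day for brain collection. Of 27 clock genes, 7 were called higher and 15 lower after AB42 in GFP-positive cells, and 7 higher and 17 lower in GFP-negative cells. The shares of all genes tested were 6.21% higher and 12.5% lower in GFP-positive cells, and 20.9% higher and 17.3% lower in GFP-negative cells. The count called higher in GFP-negative cells was thus near the share of all genes. Both BMAL1 genes, which encode the activator arm of the clock, were among those called higher in each fraction. PER1 (ENSDARG00000056885), a clock gene that glucocorticoids raise in mammals, averaged 4.01 CPM after AB42 and 26.9 CPM after CPP in GFP-positive cells, a 6.67-fold fall (adjusted p = 4.62e-16), and 10.3 CPM after AB42 and 52.1 CPM after CPP in GFP-negative cells, a 5.08-fold fall (adjusted p = 7.59e-18). The other PER1 gene (ENSDARG00000012499) fell less, by 1.56 on the log2 scale in GFP-positive (adjusted p = 2.2e-15) and 1.03 in GFP-negative cells (adjusted p = 2.68e-12). The clock repressor gene ciarta was 6.03-fold lower in GFP-positive (adjusted p = 3.65e-24) and 3.16-fold lower in GFP-negative cells (adjusted p = 4.42e-21). The clock-controlled factor gene dbpb was 2.73-fold lower in GFP-positive (adjusted p = 4.08e-14) and 3.8-fold lower in GFP-negative cells (adjusted p = 1.9e-19). The repressor gene BHLHE41 was 2.23-fold lower in GFP-positive (adjusted p = 2.09e-17) and 2.37-fold lower in GFP-negative cells (adjusted p = 1.17e-19). The part of the clock genes in the falls of fkbp5 and klf9 was not tested.

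Between the sorted fractions the members differed in direction. After AB42, 3 members were called higher in GFP-positive than in GFP-negative cells and 5 lower, where 36% of all genes were called higher and 37.7% lower. After CPP, 3 were called higher and 4 lower, where 37.1% of all genes were called higher and 35.9% lower. The kinase gene sgk1 was 2.63-fold higher in GFP-positive cells after AB42 (adjusted p = 3e-23) and 2.21-fold higher after CPP (adjusted p = 1.23e-20). The gene klf9 was 3.06-fold higher after AB42 (adjusted p = 2.93e-18) and 2.1-fold higher after CPP (adjusted p = 1.41e-14). Both were thus more abundant in the fraction with the radial glial reporter under either injection.

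Both receptor genes and the enzyme gene were lower in GFP-positive cells. The gene nr3c1 was 1.23-fold lower after AB42 (adjusted p = 0.000452) and 1.21-fold lower after CPP (adjusted p = 0.00124), and nr3c2 was 1.72-fold lower after AB42 (adjusted p = 4.53e-07) and 2.34-fold lower after CPP (adjusted p = 9.07e-12). The gene hsd11b2 was 1.75-fold lower after AB42 (adjusted p = 0.000212) and 2.2-fold lower after CPP (adjusted p = 1.79e-08). Among the induced genes, fkbp5 was 1.68-fold lower after AB42 (adjusted p = 8.95e-12) and 1.13-fold lower after CPP (adjusted p = 0.0188). The CPP value for fkbp5 lost its call without GFP-positive CPP replicate 1 (adjusted p = 0.153) or 3 (0.0523), or without GFP-negative CPP replicate 3 (0.0756), and its adjusted p ran from 1.07e-10 to 0.153 over all alternatives.

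The fraction values of tsc22d3 and zbtb16a depended on the scaling. The gene tsc22d3 was 1.09-fold higher in GFP-positive cells after AB42 (adjusted p = 0.0442) and 1.29-fold higher after CPP (adjusted p = 3.22e-07), but library totals turned its log2 fold change to -0.13 after AB42 and -0.11 after CPP. Its AB42 call was also lost without GFP-positive AB42 replicate 1 (adjusted p = 0.0962) or 2 (0.0687), GFP-negative AB42 replicate 1 (0.174) or 2 (0.101), or GFP-negative CPP replicate 1 (0.0649), and held in 8 of 19 alternatives. The gene zbtb16a was 1.4-fold lower after AB42 (adjusted p = 0.000462), and its log2 fold change after CPP was 0.19 (adjusted p = 0.135), or -0.29 with library totals (adjusted p = 0.0316) and 0.29 without GFP-positive CPP replicate 1 (adjusted p = 0.0367). Library totals moved the median of all genes to -0.262 after AB42 and -0.466 after CPP, against -0.00974 after AB42 and 0.0145 after CPP with TMM. Relative to those medians, tsc22d3 lay above in both comparisons under both scalings. Of all genes, 7286 were called higher and 7622 lower after AB42 by TMM, against 5452 higher and 9280 lower by library totals. After CPP the counts were 7517 higher and 7265 lower by TMM, against 4630 higher and 10673 lower by library totals.

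**Figure D3:**
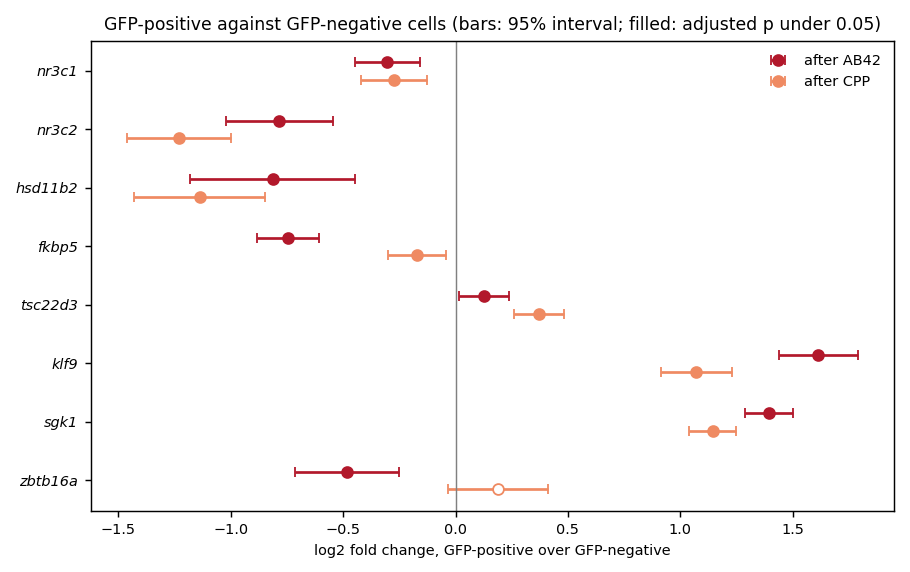
Log2 fold change of GFP-positive over GFP-negative cells (horizontal axis) for each member after AB42 and after CPP, with 95% intervals; filled points passed the threshold on adjusted p. The genes klf9 and sgk1 lie above 0 and nr3c1, nr3c2, hsd11b2 and fkbp5 below 0 after both injections, while the sign of tsc22d3 after both and of zbtb16a after CPP turns with scaling by library totals.

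Per kilobase of exon, the order of the members' levels differed between the groups. In GFP-positive AB42 libraries sgk1 was highest at 187 CPM per kb and tsc22d3 next at 171.2 CPM per kb. In GFP-positive CPP libraries tsc22d3 came first at 214.9 CPM per kb and sgk1 second at 157.2 CPM per kb. These neighbours did not overlap in either group, so per kilobase their order was reversed beyond the spread between libraries. The reversal depends on the 1 exon length used for each gene. In CPM, without division by length, sgk1 was above tsc22d3 in both groups, at 641.4 against 288.1 after AB42 and 539.1 against 361.8 after CPP.

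The place of fkbp5 in that order also differed. It stood at 24.8 CPM per kb in GFP-positive cells after AB42, below klf9 at 36.2, and at 82.5 CPM per kb after CPP, above klf9 at 65. In GFP-negative cells fkbp5 stood at 41.4 CPM per kb after AB42, after tsc22d3 at 156.9 and sgk1 at 71.2, and at 93 CPM per kb after CPP, after tsc22d3 alone at 165.9. The gene klf9 stood at 11.9 CPM per kb in GFP-negative cells after AB42, below nr3c1 at 14.9, and at 31 CPM per kb after CPP, above nr3c1 at 15.5. These places also depend on the lengths used. In CPM, fkbp5 was above klf9 in GFP-positive cells after AB42 (78.68 against 52.87) and after CPP (262.1 against 94.88). In GFP-negative cells klf9 was below nr3c1 in CPM after AB42 (17.3 against 79.85) and after CPP (45.21 against 83.06). Per kilobase, the lowest places were taken by zbtb16a, nr3c2 and hsd11b2 in each group. Neighbours overlapped only for zbtb16a and nr3c2 in GFP-negative AB42 libraries and for zbtb16a and hsd11b2 in GFP-negative CPP libraries.

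Ratios within a library do not depend on the scaling between libraries. Counts per base of fkbp5 over those of its relative FKBP4, which in mammals replaces FKBP5 on the receptor when hormone binds, were 0.324 ± 0.028 in GFP-positive cells after AB42 and 1.33 ± 0.13 after CPP (SD, n = 3 each). In GFP-negative cells they were 0.533 ± 0.00351 after AB42 and 1.81 ± 0.0451 after CPP. The fkbp5 count per base thus exceeded that of FKBP4 in all CPP libraries and was below it in all AB42 libraries. FKBP4 itself was 1.23-fold higher after AB42 in GFP-positive cells (178 CPM after AB42 and 145.2 CPM after CPP, adjusted p = 0.000311) and 1.51-fold higher in GFP-negative cells (180.9 CPM after AB42 and 119.8 CPM after CPP, adjusted p = 1.44e-10). Both parts of the ratio therefore moved.

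The ratio of nr3c2 to nr3c1 per base was 0.352 ± 0.0513 in GFP-positive cells after AB42 and 0.363 ± 0.0183 after CPP, and 0.497 ± 0.0357 in GFP-negative cells after AB42 and 0.705 ± 0.108 after CPP. It overlapped between the injections in GFP-positive but not in GFP-negative cells, where the lowest CPP library was at 0.583 and the highest AB42 library at 0.538. The ratio of klf9 to its relative klf13 was 28.1 ± 6.91 in GFP-positive cells after AB42 and 28 ± 2.77 after CPP, and 6.03 ± 0.751 in GFP-negative cells after AB42 and 18.6 ± 4.71 after CPP. In GFP-positive cells both genes fell: klf13 averaged 3.4 CPM after AB42 and 5.98 CPM after CPP (adjusted p = 0.00649). In GFP-negative cells klf13 had 5.04 CPM after AB42 and 4.4 CPM after CPP (adjusted p = 0.425). The ratio of sgk1 to SGK3 was 4.8 ± 0.112 in GFP-positive cells after AB42 and 4.43 ± 0.0987 after CPP, and 6.74 ± 0.217 in GFP-negative cells after AB42 and 8.45 ± 0.497 after CPP. SGK3 was called higher after AB42 in GFP-negative cells (31 CPM after AB42 and 24.8 CPM after CPP, 1.25-fold, adjusted p = 0.002).

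**Figure D4:**
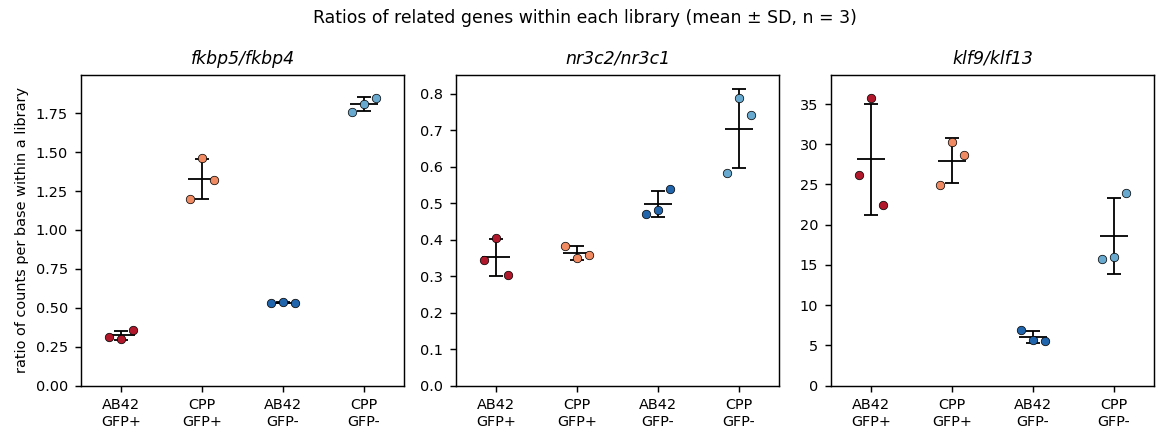
Ratio of counts per base of exon between paired genes within each library (vertical axes, each from 0); points are libraries and bars the mean ± SD of 3 libraries in GFP-positive (GFP+) and GFP-negative (GFP-) cells. The fkbp5 to FKBP4 ratio is below 1 in all AB42 libraries and above 1 in all CPP libraries, and the klf9 to klf13 ratio separates the injections in GFP-negative cells.

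Genes whose pattern was most like each member's were ranked by Pearson's r of log2 CPM over the 12 libraries, after each fraction was centred on its own mean. The libraries share the injections, so all genes that differ between the injections have that difference in common. Each closest gene had the highest r of 12755 candidates over only 12 libraries, and no p is given. For nr3c1, whose difference between the injections passed in neither fraction, r may reflect that selection. For fkbp5 they were SNAP25 (0.995), SERPINI1 (0.993) and SLC6A17 (0.992), and for klf9 they were SLC38A3 (0.988), celf5a (0.987) and tmem59l (0.986). For hsd11b2 they were NPTN (0.99), npdc1a (0.986) and C1QTNF4 (0.984). For tsc22d3 the closest gene was CEBPD (0.969), for nr3c2 cntn1a (0.958), for sgk1 IRX5 (0.949), for zbtb16a TM2D3 (0.946) and for nr3c1 pcdh2aa15 (0.888).

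Related genes of the pathway came from lists that were set with earlier results of these data known. For the counts of these lists, the shares of all genes tested were 6.21% higher and 12.5% lower in GFP-positive cells. In GFP-negative cells they were 20.9% higher and 17.3% lower. Of 17 chaperone and co-chaperone genes of the receptor complex, 9 were called higher and 0 lower after AB42 in GFP-positive cells (median log2 fold change 0.25), and 12 higher and 1 lower in GFP-negative cells (median 0.44). HSP90AA1, an Hsp90 gene, rose 1.59-fold in GFP-positive (adjusted p = 1.27e-15) and 2.08-fold in GFP-negative cells (adjusted p = 5.55e-22). Heat shock and immediate early genes, which cell dissociation is known to raise, moved as well: of 27 tested, 15 were called higher and 3 lower in GFP-positive cells, and 23 higher and 0 lower in GFP-negative cells. Their sums were 61670 to 62520 CPM after AB42 against 52170 to 52970 CPM after CPP in GFP-positive cells. In GFP-negative cells the sums were 51620 to 54510 CPM after AB42 against 28890 to 31150 CPM after CPP. Most of each sum came from hsp70.1, hsp70.3 and hsp70l. In GFP-positive cells these averaged 13590, 12730 and 15770 CPM after AB42 against 11260, 10090 and 12830 CPM after CPP. The inducible heat shock gene hsp70.1 rose 1.21-fold in GFP-positive (adjusted p = 1.91e-08) and 1.79-fold in GFP-negative cells (adjusted p = 3.61e-22). The part of dissociation in the chaperone values was not tested. The chaperone genes called higher thus moved opposite to the co-chaperone gene fkbp5. Of 16 coregulator genes 1 was called higher and 2 lower in GFP-positive cells, and 1 higher and 5 lower in GFP-negative cells. The GFP-positive counts of this list were near the shares of all genes. The coactivator gene NCOA2 had 24 CPM after AB42 and 50.4 CPM after CPP in GFP-positive cells, a 2.1-fold fall (adjusted p = 6.31e-10), and 64 CPM after AB42 and 62.2 CPM after CPP in GFP-negative cells (adjusted p = 0.727).

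Of 19 tested genes of the stress axis and of steroid metabolism, out of 28 matched, 0 were called higher and 8 lower after AB42 in GFP-positive cells (median -0.676), and 2 higher and 5 lower in GFP-negative cells (median -0.0798). Of all genes tested, 6.21% were called higher and 12.5% lower in GFP-positive cells, and 20.9% higher and 17.3% lower in GFP-negative cells. The count called higher in GFP-negative cells was below that share. CRH, the hypothalamic releasing hormone that starts the cortisol response, had 1.3 CPM after AB42 and 5.39 CPM after CPP in GFP-positive cells, a 4.11-fold fall (adjusted p = 1.75e-08), and 16.8 CPM after AB42 and 20.6 CPM after CPP in GFP-negative cells (adjusted p = 0.0777). Its receptor gene CRHR1 had 20.2 CPM after AB42 and 33.9 CPM after CPP in GFP-negative cells, a 1.67-fold fall (adjusted p = 1.11e-05). After CPP, CRH was 3.82-fold and CRHR1 12.7-fold lower in GFP-positive than in GFP-negative cells. These falls stand beside those of the 23 neuron markers, of which 18 were called lower in GFP-positive (median -0.944) and 20 in GFP-negative cells (median -0.679), with 0 higher in either. The part of the neuron markers was not tested. The genes called higher in GFP-negative cells were crha and POMC. There crha had 2.1 CPM after AB42 and 1.11 CPM after CPP (1.83-fold, adjusted p = 0.0474). POMC had 3.89 CPM after AB42 and 1.7 CPM after CPP (2.27-fold, adjusted p = 0.00098). In GFP-positive cells both were called lower (adjusted p = 8.43e-05 for crha and 0.00506 for POMC), at levels near the floor of 3 counts per library. Summed over the libraries of a group, crha had 0 counts after AB42 and 29 after CPP there. Its fall is bounded only at 3.05-fold from that floor. POMC had 8 counts after AB42 and 37 after CPP (0.262 and 1.05 CPM). The cortisone-converting enzyme gene hsd20b2, picked after its values were seen, had 1.26 CPM after AB42 and 3.51 CPM after CPP in GFP-negative cells, a 2.71-fold fall (adjusted p = 0.000153), beside the fall of hsd11b2. In GFP-positive cells it had 1.03 CPM after AB42 and 2.22 CPM after CPP (adjusted p = 0.0279).

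Other genes that glucocorticoids raise in mammals did not share one direction with fkbp5 and klf9. Of 45 such genes tested, 11 were called higher and 13 lower after AB42 in GFP-positive cells (median -0.0862), and 24 higher and 8 lower in GFP-negative cells (median 0.218). The shares of all genes tested were 6.21% higher and 12.5% lower in GFP-positive cells, and 20.9% higher and 17.3% lower in GFP-negative cells. PLIN2, a lipid droplet protein gene, rose 1.99-fold in GFP-positive (adjusted p = 1.49e-11) and 7.86-fold in GFP-negative cells (adjusted p = 4.37e-26). ANGPTL4, a secreted inhibitor of lipoprotein lipase, rose 1.77-fold in GFP-positive (adjusted p = 5.95e-16) and 2.38-fold in GFP-negative cells (adjusted p = 2.72e-21). The rises in GFP-negative cells stand beside that of all 22 microglia and macrophage markers tested there, whose part was not tested. Among the genes of the list that were lower in GFP-positive cells were both PER1 genes, which are also in the clock list. CEBPD, a transcription factor gene, fell there by 0.68 on the log2 scale (adjusted p = 3.37e-12), and DDIT4, an inhibitor of mTORC1 signalling, fell by 0.54 (adjusted p = 0.000579). These were picked after their values were seen. Of 12 close relatives of the members, 2 were called higher and 1 lower in GFP-positive cells, and 3 higher and 1 lower in GFP-negative cells. The GFP-negative counts of this list were near or below the shares of all genes. Among the relatives sgk2b had 18 CPM after AB42 and 1.98 CPM (89 counts) after CPP in GFP-negative cells, an 8.9-fold rise (adjusted p = 5.51e-16). Its relative sgk1 stood at 244 CPM after AB42 and 243.7 CPM after CPP there.

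Genes that glucocorticoids lower in mammals were also counted. Of 18 tested, 5 were called higher and 8 lower after AB42 in GFP-positive cells (median -0.509), and 12 higher and 1 lower in GFP-negative cells (median 0.903). The shares of all genes tested were 6.21% higher and 12.5% lower in GFP-positive cells, and 20.9% higher and 17.3% lower in GFP-negative cells. The cytokine gene il11a rose 3.44-fold in GFP-positive (adjusted p = 1.86e-16) and 1.89-fold in GFP-negative cells (adjusted p = 5.5e-07). The cytokine gene il1b had 2.75 CPM after AB42 and 17.5 CPM after CPP in GFP-positive cells, a 6.42-fold fall (adjusted p = 3.15e-15), and 25.8 CPM after AB42 and 23.2 CPM after CPP in GFP-negative cells (adjusted p = 0.303). In GFP-positive cells these values stand beside the lymphocyte and neutrophil markers, of which 1 was called higher and 6 lower of 14, with a median log2 fold change of -1.76, or -1.24 with the gene at 0 counts after AB42 set at its limit. The marker called higher was MMP9, which is also 1 of the 5 hormone-lowered genes called higher in GFP-positive cells. The immunoglobulin gene ighm fell by 5.13 there (adjusted p = 2.04e-17), while the list's sums, which include the rise of MMP9, were 31.7 to 37.8 CPM after AB42 against 31.9 to 34.6 CPM after CPP. Those sums also include ighm, so its fall rests on few counts after AB42. In GFP-negative cells the counts of the hormone-lowered genes stand beside the rise of all 22 microglia and macrophage markers tested. The part of either marker list was not tested.

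**Figure D5:**
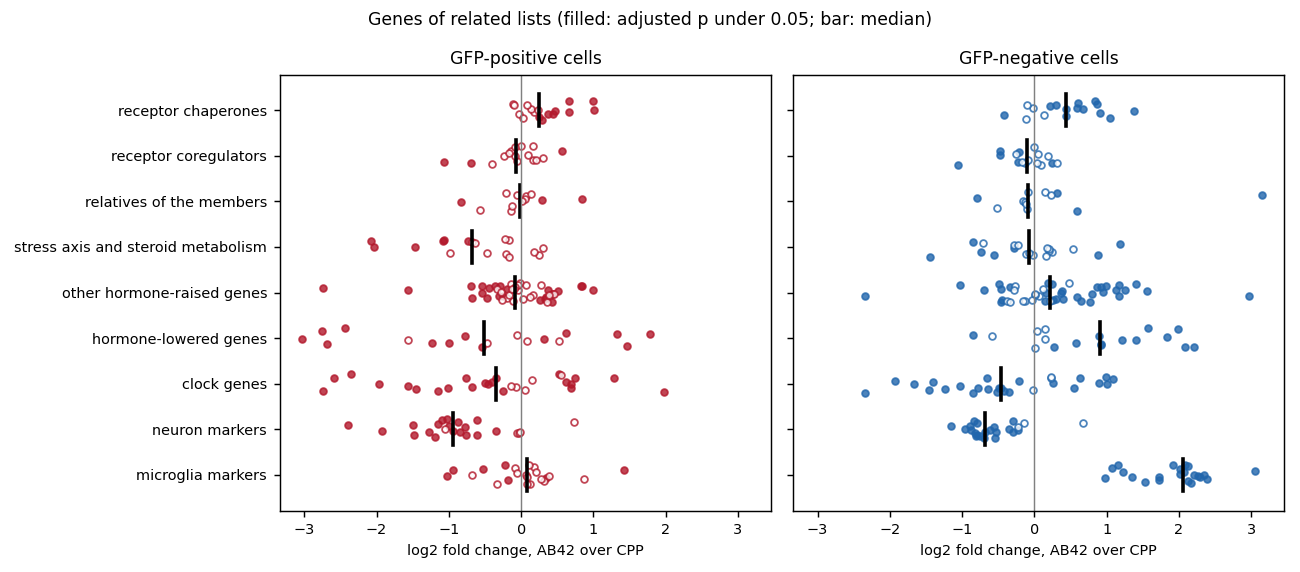
Log2 fold change of AB42 over CPP (horizontal axes) for tested genes of related lists in GFP-positive and GFP-negative cells; each point is a gene, filled where it passed the threshold on adjusted p, and the bar is the list's median with crha and avp, which had 0 counts in GFP-positive AB42 libraries and are not drawn there, at their limit from 3 counts per library. Receptor chaperones lie mostly above 0 and neuron markers mostly below 0 in both fractions, and microglia markers lie above 0 in GFP-negative cells.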

How the data were processed

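The authors deposited 1 table of read counts per Ensembl gene, made with BWA 0.7.12 and featureCounts on GRCz10 (danRer10) per the submitters' processing notes; neither the annotation release nor the strand setting is stated there, so reads of overlapping antisense genes cannot be told apart. Per the labels' protocols, libraries came from poly-dT primed, PCR-amplified cDNA read as single ends of 75 bases, so counts are not independent molecules and floors cover counting error only. Gene names came from a table that matched 26121 of 31953 identifiers.

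The counts were fitted in edgeR 4.0.16 (R 4.3.3): filterByExpr, TMM, quasi-likelihood with 4 group means over 12 libraries, and Benjamini-Hochberg adjustment over 20237 genes with a threshold of 0.05. Fold changes carry a prior count of 0.125. The script was tested on simulated data. The members and lists were chosen with earlier results of these data known. All members are named; from each related list the rule took up to 4 genes with the smallest p among those called with at least 5 CPM in the higher group, a selection of which is printed, and for likeness the 3 genes with the highest r. Alternatives were RLE scaling, library totals, other filters, DESeq2 1.42.0, the 6 libraries compared, a replicate block and leaving out each library. No 2 libraries held identical values.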

Additional observations from a re-analysis of the deposited data

Results flagged for a closer look

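For 5 of the 8 genes the effect of AB42 over CPP in GFP-positive cells minus that in GFP-negative cells passed the test of the difference itself (edgeR, adjusted over all genes). On the log2 scale the difference was -0.5729 for fkbp5, whose effect was -1.74 in GFP-positive and -1.17 in GFP-negative cells, and -0.6703 for zbtb16a, with effects of -0.62 in GFP-positive and 0.05 in GFP-negative cells. It was 0.5424 for klf9, with effects of -0.84 in GFP-positive and -1.39 in GFP-negative cells, and 0.2484 for sgk1, with effects of 0.25 in GFP-positive and 0.002 in GFP-negative cells. For tsc22d3 it was -0.2466, with effects of -0.33 in GFP-positive and -0.08 in GFP-negative cells. The differences of fkbp5, klf9 and sgk1 kept their sign and call in 18 of 18 alternatives, that of zbtb16a in 17 and that of tsc22d3 in 10.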

How the results depend on the processing

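After AB42 the falls of fkbp5, klf9 and hsd11b2 in both fractions, of nr3c2 in GFP-negative cells, and of tsc22d3 and zbtb16a in GFP-positive cells, and the rise of sgk1 there, kept direction and call in 19 of 19 alternatives. Among these, leaving out a library of the other fraction reaches such an effect only through the shared filter, scaling and spread, so those alternatives are weak checks. For fkbp5 the log2 fold change ran from -1.83 to -1.65 in GFP-positive and from -1.3 to -1.15 in GFP-negative cells. Library totals called 7 members in GFP-negative cells against 4, and 42.8% of all genes there. They gave AB42 effects of 0.01249 for nr3c1 in GFP-positive cells and -0.1326 for sgk1 and -0.09088 for zbtb16a in GFP-negative cells, fraction values of -0.1116 for tsc22d3 and -0.2925 for zbtb16a after CPP and -0.1267 for tsc22d3 after AB42, and a difference between fractions of 0.201 for nr3c1. The sgk1 effect in GFP-negative cells was -0.02286 with RLE scaling, -0.02292 with DESeq2 and -0.001275 with only the 6 libraries compared, and the nr3c1 difference was 0.007419 with RLE scaling and 0.007406 with DESeq2. The cause was not tested.

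Library totals called 2112 genes higher and 1769 lower after AB42 in GFP-positive cells, against 1256 higher and 2523 lower with TMM, and 3191 higher and 5463 lower in GFP-negative cells, against 4239 higher and 3494 lower with TMM. Leaving out 1 library gave -0.2221 to 0.0187 for nr3c2 in GFP-positive cells, -0.0438 to 0.01653 for sgk1 and -0.08238 to 0.1443 for zbtb16a in GFP-negative cells, and -0.09272 to 0.06489 for the nr3c1 difference. It gave 0.09982 to 0.1618 for tsc22d3 between fractions after AB42, which kept its call in 8 of 19 alternatives. With a replicate block 6 members were called in GFP-positive cells (21.5% of all genes, 4356) and 4 in GFP-negative cells (40.7%, 8236), 7 between fractions after CPP (73.9%) and 8 after AB42 (74.7%). In the difference 6 were called (25.2%), where nr3c2 joined at 0.4421. To look for pairing, each group's own mean was subtracted from log2 CPM gene by gene, and the remainders were correlated between libraries of different groups. Same-numbered libraries correlated at -0.0209 to 0.0923 (median 0.0378), against -0.0942 to 0.0643 (median -0.0205) for different numbers. Of the 12 libraries, 7 had their best match in another group under their own number. These values do not settle whether the numbers pair the samples. The labels do not say that a number marks a shared animal, batch or day, so the main fit took no pairing. Depth limits hsd11b2 most, with 28 to 49 counts in GFP-positive AB42 libraries.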
